A study of Homo sapiens with 1 sample.

Results

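The miRNAs described here are both mature arms, 5p and 3p, of the clustered hairpins miR-191 and miR-425 and of the separate hairpin miR-423, which makes 6 of the 2549 human miRNAs on the array. They were chosen by name, with earlier results of these data known. The sample was DLD-1, a human colorectal carcinoma cell line, transfected with a negative control plasmid (DLD-1 pLVX-NC), and it was measured on 1 Agilent 1-colour array with Cy3-labelled RNA. The study pairs this control with cells that overexpress the circular RNA circLONP2, whose array was not analysed here. With 1 array of 1 condition there was no replicate and no test between conditions, and the spots of a probe are technical repeats that describe error within the array only. Brightness also depends on how strongly a probe binds, so that the orders given below are orders of signal and not of molecule number.

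A miRNA hairpin is cut into a short duplex, 1 strand of which is usually loaded into an Argonaute protein, where bases 2 to 8, the seed, pair with target messenger RNAs. The strand from the left side of the hairpin is the 5p arm and the strand from the right side is the 3p arm. miR-191-5p, miR-425-5p and both arms of miR-423 are found in many tissues and body fluids, and are often used as reference miRNAs against which others are normalised in quantitative PCR.

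The hairpins are printed first because the results turn on which arm gave signal. According to RefSeq (GRCh38.p14), MIR191 lies at chr3:49020618-49020709 and MIR425 at chr3:49020148-49020234, both on the minus strand, 383 bases apart. Both lie within the span of the protein-coding gene DALRD3 (chr3:49015488-49021505), and MIR191 also lies within that of NDUFAF3 (chr3:49020452-49023495). MIR423 lies at chr17:30117079-30117172 on the plus strand, within the span of NSRP1 (chr17:30116816-30186475). Capitals mark the mature arms that the table lists, which are both arms of MIR191 and MIR423 and the 3p arm of MIR425.
MIR191: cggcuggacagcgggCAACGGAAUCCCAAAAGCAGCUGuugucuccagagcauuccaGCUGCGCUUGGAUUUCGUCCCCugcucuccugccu
MIR425: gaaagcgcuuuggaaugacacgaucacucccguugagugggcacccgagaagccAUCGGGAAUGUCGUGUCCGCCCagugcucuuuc
MIR423: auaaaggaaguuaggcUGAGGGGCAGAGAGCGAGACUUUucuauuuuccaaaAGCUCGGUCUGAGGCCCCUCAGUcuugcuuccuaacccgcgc

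The mature sequences, which matched for 5 of the 6 miRNAs, are shown for their seeds, in capitals. hsa-miR-3184-5p and hsa-miR-3184-3p are added because their gene, MIR3184 (chr17:30117086-30117160, minus strand), is encoded on the strand opposite to MIR423.
hsa-miR-191-5p: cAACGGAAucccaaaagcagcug
hsa-miR-191-3p: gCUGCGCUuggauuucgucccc
hsa-miR-425-3p: aUCGGGAAugucguguccgccc
hsa-miR-423-5p: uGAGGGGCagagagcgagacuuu
hsa-miR-423-3p: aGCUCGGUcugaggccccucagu
hsa-miR-3184-5p: uGAGGGGCcucagaccgagcuuuu
hsa-miR-3184-3p: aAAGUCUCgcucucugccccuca
Among the mature miRNAs of the table, only miR-423-5p of these 5 shared its seed with another human miRNA, and that was miR-3184-5p. Edit distance was measured to the other miRNAs of the array that had a listed sequence, 88.2% of those on the array. The nearest of these was 6 changes away for miR-423-5p and 7 for miR-423-3p. It was 8 changes away for miR-191-3p and 9 for both miR-191-5p and miR-425-3p. The guanine and cytosine content was 52.2% for miR-191-5p, 56.5% for miR-423-5p, 63.6% for miR-191-3p and miR-425-3p, and 65.2% for miR-423-3p.

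Each of the 6 miRNAs had 20 spots, spread over 2 or 4 probes, which gave 120 spots on 18 probes. None was saturated, and 3 spots that the software marked as outliers were left out. The software also flags each spot as positive and significant over background or not and, more strictly, as well above background or not. Over the whole array, 56.8% of human miRNAs carried the software's flag for a detected miRNA and 45.4% had 0.5 or more of all spots well above background. The epithelial miRNAs miR-141-3p, miR-200b-3p and miR-200c-3p were detected, as were miR-215-5p and miR-375, all 5 with that share of spots well above background, whereas miR-192-5p and miR-194-5p were not detected. Of the blood markers, 3 of 5 were detected and 0 of the 5 reached that share, and miR-451a and miR-144-3p were not detected. In stroma and vessel 2 of 4 markers were detected (miR-145-5p and miR-126-3p) and both reached it, and in muscle 2 of 3 were detected and 1 reached it. The liver marker miR-122-5p was not detected. With so few miRNAs per list, the detected counts of the epithelial (5 of 7), blood, stroma and muscle lists were not far from the share over all miRNAs.

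Of the 6 miRNAs, 5 were detected by the software's flag and 1, miR-191-5p, was not. Over all human miRNAs on the array the share detected was 56.8%, so the count alone sets these arms little apart. The brightest of the 6 was miR-423-5p, with a mean background-subtracted brightness of 307.4 ± 27.6 (SD over 20 spots), and the other 4 detected arms had means from 31.6 to 48.3. The same 5 were called under each of the other 4 criteria. These asked for a probe with 0.5 or more of its spots, or with all of them, well above background, for 0.5 or more positive and significant spots, or for a brightest probe 2-fold above the negative control level, and they were met by 49.9%, 45.8%, 68.9% and 44.6% of all human miRNAs. That level was 12.5, which 99% of the 1000 negative control spots did not exceed. The 7 negative control probes were unlike, with means of 8.15 (SD 3.12) for the brightest and 2.14 (SD 1.93) for the next. The other 5 had means from -3.30 to -2.69, so the level lay far above all but the brightest.

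miR-191-5p is the arm of the hairpin that is commonly used as a reference, and on this array its 20 spots ranged from -4.76 to 3.14 with a median of -1.55. Brightness below 0 means that the spot was dimmer than the background subtracted from it, which was so for 14 of the 20 spots. The means of its 4 probes were -1.95, -1.63, 0.00358 and -1.34, and no spot was well above background or positive and significant. None of the 4 probes rose above background. The mean over all spots was -1.23 ± 2.27 (SD over 20 spots), which fell inside the range of the 7 negative control probes, whose means ran from -3.30 to 8.15, and 5 of these were dimmer than miR-191-5p. Among the 1101 undetected human miRNAs it was not among the dimmest, since 41.9% of them had a lower mean. Its deposited normalized value was 2.32 on the log2 scale, the lowest value of the table, which all undetected human miRNAs share.

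The other arm of the same hairpin, miR-191-3p, was detected. Its 20 spots ranged from 26.6 to 42.3 with a median of 31.0, and all 20 were well above background. Its spots did not overlap those of miR-191-5p. The means of its 4 probes were 31.8, 34.2, 30.1 and 30.3, and the mean over all spots was 31.6 ± 3.41 (SD over 20 spots). Because miR-191-5p had no signal above background, only a limit can be given for the balance of the arms. Against the lowest mean brightness of a probe well above background in at least 0.5 of its spots, 16.0, the miR-191-3p signal was at least 1.97-fold higher than that of miR-191-5p. With the lowest level taken from probes that had all spots well above background, 20.4, the limit was at least 1.54-fold. With other brightness measures the limit was at least 1.60-fold for median spot brightness and at least 1.20-fold after normexp background correction. It was at least 1.90-fold with the deposited values, 1.99-fold with the median over spots and 2.12-fold with the brightest probe. The size of the difference is therefore poorly bounded. The array held 810 hairpins with a 5p and a 3p miRNA. Of these, 17.8% had the 3p arm detected alone, 232 had the 5p arm alone, 255 had both arms and 179 had neither.

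**Figure D1:**
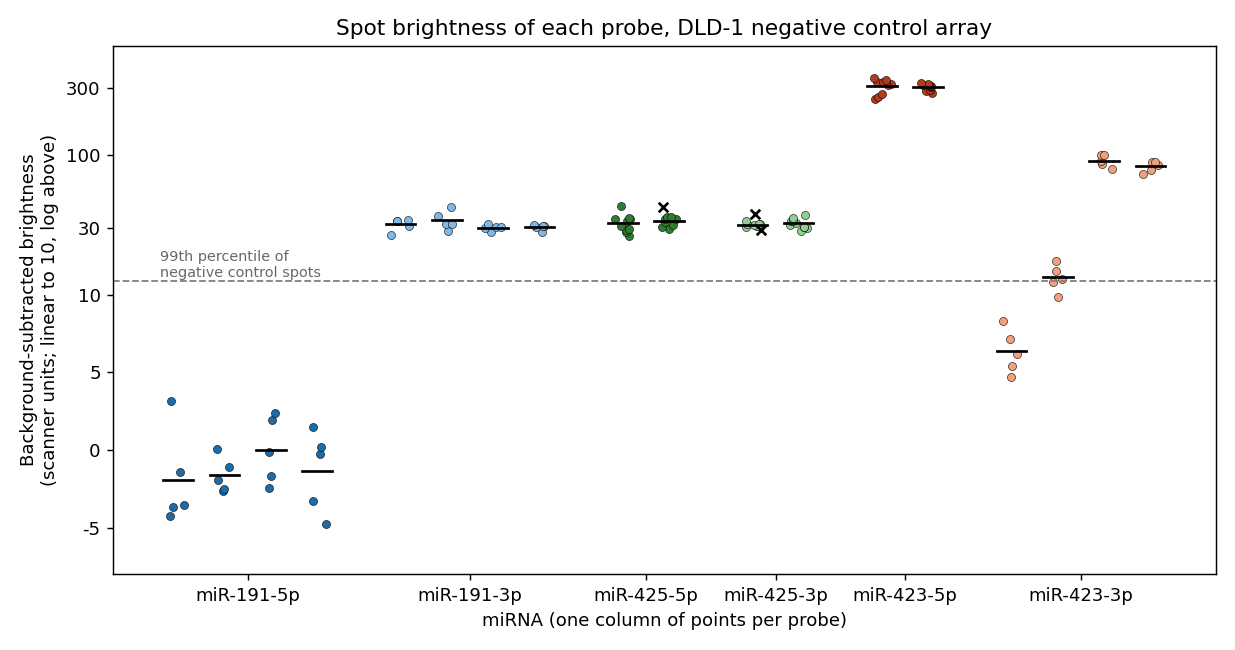
Background-subtracted brightness (vertical axis, scanner units, linear up to 10 and logarithmic above) of each spot of the 6 miRNAs, with a column of points per probe, a bar at the probe's mean and crosses for spots marked as outliers and left out. The spots of miR-191-5p lie between -4.76 and 3.14, below the dashed line at the negative control level of 12.5, while those of miR-191-3p and both miR-425 arms lie near 30 and the 4 probes of miR-423-3p fall into a dim and a bright pair.

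miR-425 is the other miRNA of the cluster, and on the transcribed minus strand its hairpin follows that of miR-191. The spots of miR-425-5p ranged from 26.4 to 43.3 with a median of 33.7 over 19 spots, and those of miR-425-3p from 28.6 to 36.9 with a median of 31.6 over 18 spots. The spots of the arms overlapped, and all were well above background. The mean brightness was 33.0 ± 3.85 (SD over 19 spots) for miR-425-5p and 31.98 ± 2.003 (SD over 18 spots) for miR-425-3p. The 5p signal minus the 3p signal was 0.04 on the log2 scale with a standard error of 0.04 from the spots, so that the difference between the arms was within the error between spots. Every alternative of processing gave a difference between 0.01 and 0.07.

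The 8 probes of miR-191-3p, miR-425-5p and miR-425-3p all had mean brightness values from 30.1 to 34.2, a range of 0.17 on the log2 scale. These 3 arms of the cluster did not differ beyond the error between spots at 2 standard errors. miR-425-5p exceeded miR-191-3p by 0.06 (standard error 0.05) and miR-425-3p exceeded it by 0.02 (standard error 0.04), both on the log2 scale. Their probes were 2.41-fold to 2.74-fold as bright as the negative control level, close to the margin of 2-fold in the criterion that uses it. That level lay far above most negative control probes, and all spots kept for these 3 arms were well above background. Along the whole order of signal, 11 other detected miRNAs lay between the highest and the lowest of these 3 arms. Their deposited log2 values were 3.25 for miR-191-3p, 3.31 for miR-425-5p and 3.26 for miR-425-3p.

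The spots of miR-423-5p ranged from 250.6 to 353.5 with a median of 314.5, and those of miR-423-3p from 4.68 to 100.008 with a median of 45.1. All spots of the 5p arm were brighter than all spots of the 3p arm. The 4 probes of miR-423-3p had means of 6.34, 13.4, 90.8 and 82.6, with 5 spots each. They fell into a dim and a bright pair whose spots did not overlap. All 10 spots of the bright pair were well above background, and 0 of the 10 spots of the dim pair were, although all 10 were positive and significant.

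Since the dim pair was not well above background, differences that use it are given as limits, with each dim probe set at the lowest brightness measured for a probe well above background, 16.0. The bright pair was at least 5.41-fold brighter than the dim pair. Against the bright pair the miR-423-5p signal was 1.83 higher on the log2 scale (standard error 0.05 from the spots), which is 3.55-fold, and the 4 pairs of a 5p probe and a bright 3p probe gave 1.75 to 1.90. Against the dim pair it was at least 19.2-fold higher. Over all 4 probes the 5p arm was at least 8.25-fold, or 3.04 on the log2 scale, brighter than the 3p arm. The plain mean over all probes, the dim pair at its own values, gave 3.45 on the log2 scale. The 5p arm was thus the brighter arm whichever probes were read, while the size of the difference depended on them.

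Among the 255 hairpins with both arms detected, 53.3% had a 5p signal more than 1 log2 unit above the 3p signal. The median difference over these hairpins was 1.34, with quartiles of -0.71 and 3.21. miR-423 exceeded 57.6% of them when read from its bright 3p probes and 77.3% when read from the mean over all probes. For miR-425 the size of the difference was smaller than in nearly all of them, since 1.18% had a smaller one.

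**Figure D2:**
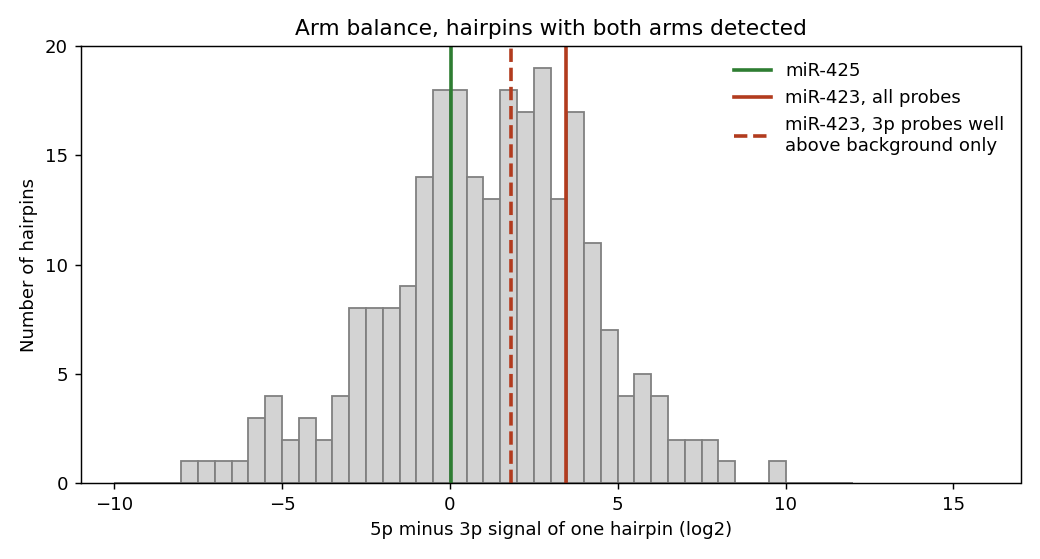
Number of hairpins (vertical axis) by the 5p signal minus the 3p signal on the log2 scale (horizontal axis) for the 255 hairpins with both arms detected, with solid lines at miR-425 (0.04) and at miR-423 from the mean over all probes (3.45), and a dashed line at miR-423 from the 3p probes well above background (1.83). miR-425 sits at equal signal of the arms and miR-423 to the right of the median of 1.34 on either reading, and miR-191 is absent because its 5p arm was not detected.

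The 2 probes of miR-423-5p had means of 310.2 ± 36.4 and 304.6 ± 16.5 (SD over 10 spots each), 0.02 apart on the log2 scale (standard error 0.06). The probes of miR-425-3p differed by 0.03 (standard error 0.04), those of miR-425-5p by 0.05 (standard error 0.07), and the brightest and the dimmest of the 4 miR-191-3p probes by 0.17 (standard error 0.10). For these 4 miRNAs the probes agreed within 2 standard errors. For miR-423-3p, whose dimmest probe was not well above background, the difference was at least 2.50 with that probe at the lowest measured level, and 3.86 with the probe at its own value. miR-423-3p was the only one of the 5 detected arms with a difference over 1 log2 unit. At the probes' own values 24.7% of detected miRNAs with several probes had such a difference, and 54.3% of those with 4 probes. With dim probes at the lowest measured level the shares were 16.4% and 29.0%. Among the 138 detected miRNAs with 4 probes, 0.725% had closer agreement than miR-191-3p, which is 1 miRNA, and 14 had a larger limit than miR-423-3p. Among the 1217 detected miRNAs with 2 probes, 4.68% had closer agreement than miR-423-5p, 6.24% than miR-425-3p and 11.1% than miR-425-5p, beside a median difference of 0.31.

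**Figure D3:**
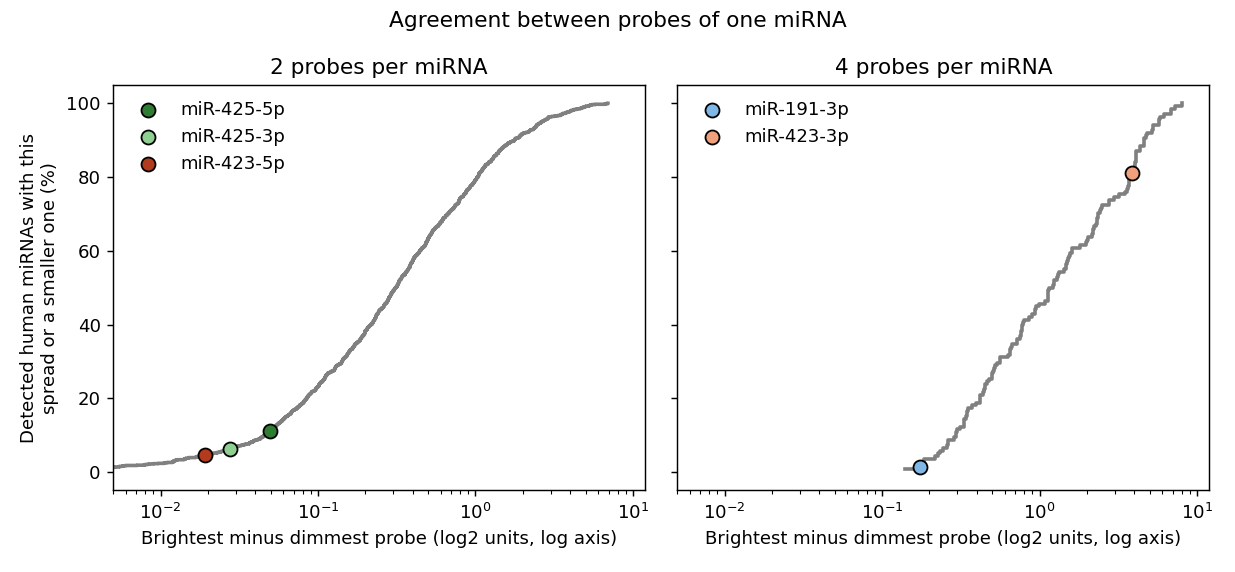
Share of detected human miRNAs (vertical axis, percent) whose brightest and dimmest probes differ by the value on the horizontal axis or less (log2 units on a logarithmic axis), for miRNAs with 2 probes and with 4 probes, with the 5 detected arms as points. The arms of miR-425, miR-423-5p and miR-191-3p lie at the low end of their curves, from 0.02 to 0.17, and miR-423-3p lies at 3.86, drawn with its dimmest probe at its own value, which was not well above background (at least 2.50 as a limit).

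In the order of signal among the 1448 detected human miRNAs, miR-423-5p ranked 258, and 82.2% of detected miRNAs were dimmer. Signal is the log2 brightness averaged over spots and then probes, minus that of the 75th percentile probe among the detected ones, whose brightness was 248.8. The signal of miR-423-5p was 0.30. The other 4 arms lay together, with miR-425-5p at rank 915 (-2.92), miR-425-3p at 923 (-2.96), miR-191-3p at 928 (-2.98) and miR-423-3p at 981 (-3.15). They were below the median of detected miRNAs, -2.06, and between 32.3% and 36.8% of detected miRNAs were dimmer than each. miR-423-3p was lower than its neighbour among the 6, miR-191-3p, by 0.17 (standard error 0.06), but its place rested on the 2 dim probes that were not well above background. Read from its bright pair, against the mean over all probes of each other miRNA, it would have ranked 595. With every miRNA read from its brightest probe it ranked 658. In the deposited values it stood above these 3 arms, with 3.71 on the log2 scale and rank 829, and it also stood above them in the total signal, after normexp background correction, when the brightest probe stood for each miRNA and, by 1 rank, with median spot brightness. On the linear scale, too, its mean of 48.3 ± 39.96 (SD over 20 spots) was the highest of the 4. The deposited value of miR-423-5p was 6.51.

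The order is dense around the cluster arms, where 11 other detected miRNAs lay between the highest and the lowest of the 3. The miRNAs directly above and below each detected arm, 10 in all, differed from it by less than 1 standard error. Because these neighbours were picked by the same signal, such small differences are built into the choice. For miR-423-5p these were miR-6788-5p above and miR-2276-3p below, with 313.4 and 306.1 mean brightness. For miR-425-5p they were miR-4750-3p and miR-5580-3p, for miR-425-3p miR-6812-3p and miR-1273h-5p, and for miR-191-3p miR-892c-5p and miR-520a-5p. miR-423-3p stood between miR-4283 and let-7d-5p. These are likenesses of signal on 1 array and of nothing else.

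The 12 other miRNAs often used as references were all detected, beside 56.8% of all human miRNAs, and their mean brightness ran from 11.4 to 1449 with a median of 53.9. miR-423-5p was brighter than 11 of them, miR-320a alone being brighter (1449 ± 118, SD over 20 spots). The next below it was let-7a-5p with 228.3 ± 133.3 (SD over 19 spots), whose 2 probes differed by 1.79 on the log2 scale. In order of log2 signal, miR-93-5p (-0.61), miR-25-3p (-0.75), miR-26a-5p (-1.21), miR-186-5p (-2.15), miR-16-5p (-2.35) and miR-24-3p (-2.57) followed, all above both miR-425 arms and miR-191-3p. miR-103a-3p (-3.08) and miR-484 (-3.13) lay between miR-191-3p and miR-423-3p, and miR-361-5p (-3.38) and miR-30c-5p (-4.50) lay below all 5. Each of the 12 had 2 probes, which differed by 0.08 to 1.79 with a median of 0.47. The differences of 0.02 to 0.05 in the 3 detected arms with 2 probes lay below this range. The closest of the 12, miR-484 at 0.08 (standard error 0.08), did not differ from them beyond the error between spots. By the software's flag, miR-191-5p was thus the only one of these 12 and the 6 arms that was not detected. Of the 12, 11 had 0.5 or more of their spots well above background. The remaining one, miR-30c-5p, had 0 of 18 spots well above background, although all 18 were positive and significant. Its mean of 11.4 was below the negative control level of 12.5.

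**Figure D4:**
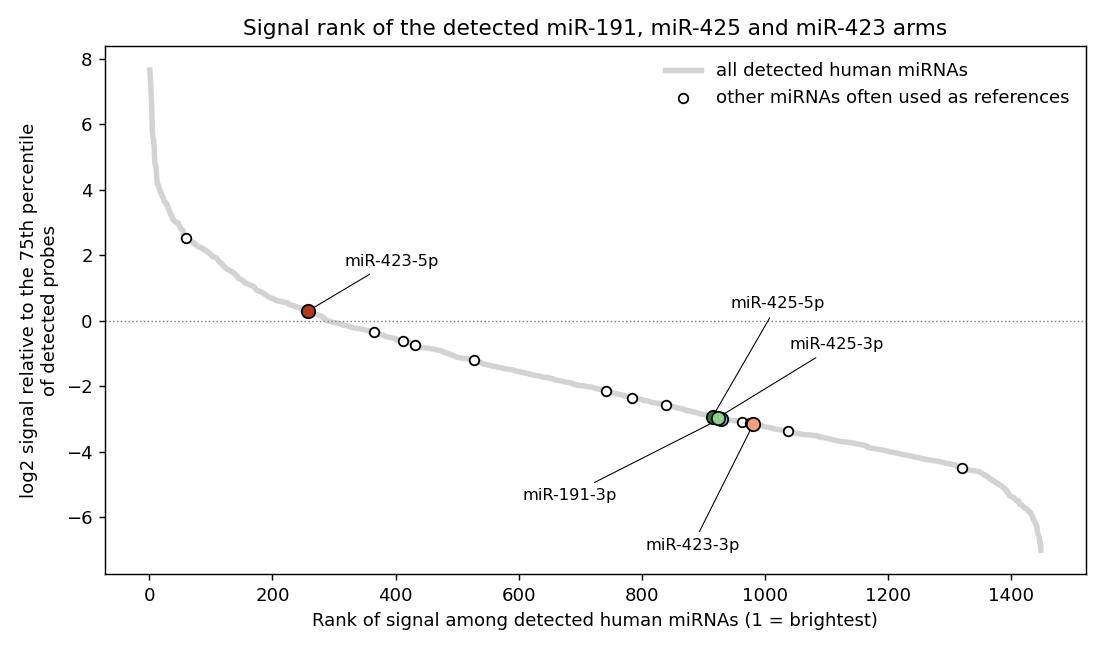
log2 signal, with 0 at the 75th percentile of probes detected (vertical axis), against the rank of signal among the 1448 detected human miRNAs (horizontal axis, 1 is the brightest), with the 5 detected arms as coloured points and 12 other reference miRNAs as open circles. miR-423-5p stands at rank 258, above all open circles but miR-320a, and the other 4 arms stand between ranks 915 and 981.

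The arms of miR-3184, read from the strand opposite to miR-423, gave no signal (5p) or a weak one (3p). miR-3184-3p is the exact reverse complement of miR-423-5p, and miR-3184-5p shares a run of 21 bases with the reverse complement of miR-423-3p. miR-3184-5p, which has the seed of miR-423-5p, was not detected, and its 20 spots ranged from -5.07 to 2.26. miR-3184-3p carried the flag, and 17 of its 20 spots were positive and significant, although only 1 was well above background. Its mean of 9.17 ± 4.37 (SD over 20 spots) was below the negative control level. The brightest spot of either arm, 19.4, was far below the dimmest spot of miR-423-5p, 250.6.

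Detection over the array moved with base composition. Of the 2248 miRNAs with a sequence in the table, 88.2% of those on the array, the share detected was 20.65% below 40% guanine and cytosine, 46.4% from 40% to below 50%, 64.1% from 50% to below 60%, 76.8% from 60% to below 70% and 86.3% above that. miR-191-5p and miR-423-5p lay in the same band, where 438 of 683 were detected, and gave -1.23 and 307.4 mean brightness. miR-191-3p, miR-425-3p and miR-423-3p lay in the next band. The labels describe dye ligation to the RNA itself with Cyanine 3-pCp, which joins the 3′ end, whereas the methods describe labelled cDNA. By the last base at the 3′ end, the share detected was 58.3% for G, the last base of miR-191-5p, 61.3% for C, that of miR-191-3p and miR-425-3p, and 50.15% for U, that of both miR-423 arms. The part of base composition and of the last base in the signals of these arms was not tested.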

How the data were processed

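1 array of DLD-1 cells given a negative control plasmid was analysed, with its group taken from the labels. The deposited scanner output holds linear spot intensity from Agilent Feature Extraction 11.0.1.1, with which the authors removed background and flagged spots as outliers, saturated or well above background and miRNAs as detected. The authors also deposited log2 values, quantile normalized with GeneSpring GX according to the methods. Which arrays entered that normalization is not given in the sources used here.

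Here, control spots and outliers were dropped, brightness was floored at 1, and log2 means were taken per probe and then per miRNA. Signal is relative to the 75th percentile of 2567 probes of detected miRNAs with 0.5 or more of the spots well above background. Standard errors came from the spots. An arm without signal was given the lowest mean brightness among probes well above background, and so were single dim probes of miR-423-3p where limits are given. The miRNAs named were the 6 arms, both arms of miR-3184, the rank neighbours, miRNAs sharing a seed, 12 reference miRNAs and cell type markers. These members and lists were chosen with earlier results of these data known.

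Alternatives covered the detection criterion, signal column, normexp correction (limma 3.58.1, R 4.3.3, offset 50), outlier spots, probe and spot summaries, scaling and deposited values. The normexp fit and the signal column alternative used median spot signals. Python 3.11.15, numpy 2.4.6 and pandas 2.3.3 were used. The number of arrays limits the precision, and no p-value is given.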

Additional observations from a re-analysis of the deposited data

How the results depend on the processing

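The count of 5 detected arms and the count of 1 arm with probes more than 1 log2 unit apart were the same under every alternative tried for them. The median log2 signal of the 5 detected arms, -2.96, became -2.63 with median spot brightness minus local background, -1.73 after normexp correction, -2.65 with the total signal of the software, -2.55 with the deposited values and -1.17 with the percentile over all human miRNA probes. It was below the reference level throughout. Their median rank of 923 became 1013 when the brightest probe stood for each miRNA. The arm difference of miR-423, 3.45, became 2.93 with median spot brightness, 1.87 after normexp correction, 1.77 with the brightest probe, 2.72 with the total signal and 2.80 with the deposited values, always with the 5p arm brighter. It was 3.04 with the dim 3p probes at the lowest measured level and 1.83 with only the 3p probes well above background, both chosen after seeing the data. The lower limit for miR-191, 3p over 5p, was 0.98 on the log2 scale and became 0.68 with median spot brightness and 0.26 after normexp correction. It was 0.62 with the level from probes with every spot well above background, a setting chosen after seeing the data. The total signal gives no level of this kind and yielded no value. For single arms, 24 of the 40 alternative signals, 10 of 40 ranks and 3 of 25 probe differences moved by more than the spread between spots. The normexp offset of 50 narrows ratios, but its part and any other cause of these changes were not tested. No paired analysis was possible because all values come from a single array. The signals of miR-191-3p and both miR-425 arms, at most 2.74-fold the negative control level, limit what differences among them can show.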
